A study of Rana pirica with 9 samples.

Results

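The corticosteroid receptors and the genes they are known to induce were examined in brains of tadpoles of the brown frog Rana pirica. The members were defined by gene symbol, on a list drawn up with earlier results of these arrays known: nr3c1, nr3c2, sgk1, tsc22d3 and fkbp5. A probe set was a member where the platform annotation gave it exactly 1 symbol and that symbol, without its homeolog ending, was on the list. This gave 7 of the 15491 probe sets tested, for 4 of the 5 listed genes (of 6485 genes in all). There were 3 probe sets for nr3c1, 2 for tsc22d3, 1 for nr3c2 and 1 for sgk1, and 0 matched fkbp5, which was not analysed here. A probe set annotated with both copies of nr3c1 carries several symbols and was left out. Tadpoles at a stage before hind limbs had been kept for 8 days with salamander larvae, a predator of tadpoles (salamander group, 3 arrays), or without them (control group, 6 arrays). Each array carried RNA pooled from 10 brains. Tadpoles within a pool cannot be told apart, and fewer cells of a type cannot be told apart from less RNA per cell. The arrays were one-colour Affymetrix GeneChips made for the clawed frog Xenopus, so RNA of one frog was read with probes designed for another.

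Corticosteroids are the steroid hormones of the vertebrate stress response, and corticosterone is the main one in frogs. The hormone enters the cell and binds the glucocorticoid receptor (nr3c1) or the mineralocorticoid receptor (nr3c2), which wait in the cytoplasm in a complex with heat shock chaperones. The bound receptor moves to the nucleus and switches target genes on or off. In mammals sgk1, tsc22d3 and fkbp5 are among the genes most often used to read receptor activity: sgk1 is a kinase that promotes sodium uptake, tsc22d3 (also called GILZ) is a leucine zipper protein that mediates anti-inflammatory effects, and fkbp5 is a chaperone partner that lowers the receptor's affinity for its hormone. The comparison asks whether the receptors and these targets differed in the brains of tadpoles kept with a predator, and whether receptors and targets differed alike. Frogs of the species Xenopus laevis carry 2 copies of many genes, marked L and S, from a genome duplication that the Rana lineage does not share. Probe sets for the L and S copies may thus read 1 and the same gene of Rana pirica.

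Each value is a log2 MAS5 signal minus the median of the 6 controls for that probe set. Such values show differences between arrays but no absolute level, so the members cannot be ranked by how strongly they are expressed, nor can the brain be checked by whether its defining markers are present. The medians of the 9 arrays lay between -0.01 and 0.01, and the number of arrays limits the precision. The SD over probe sets was 0.94 to 0.99 on control arrays and 1.14 to 1.16 on salamander arrays. Centring on the controls narrows the control arrays by construction. Some values are marked as weak by their rounding step, which shows a signal below 256 units in that array or in the control median subtracted from it. Weak signals can also escape the mark. The poly-A spike-in RNAs, added in preparation, were high on control arrays 2, 3 and 4 and salamander arrays 1 and 2 (means of 1.04 to 1.60), and low on control arrays 1, 5 and 6 and salamander array 3 (-2.04 to -1.54). Differences of the members within these sets are given beside the main ones. The labels call the samples biological replicates. They do not say whether pools came from separate tanks, so p-values measure the spread between these samples only.

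The kinase gene sgk1 had the largest difference of the 7 probe sets, 3.93-fold lower in the salamander group, and tsc22d3.L was 2.63-fold lower. The other target probe set, tsc22d3.S, had a log2 difference of 0.08. Neither the targets nor the receptors thus gave a common direction. The 3 probe sets of nr3c1 stood near 0, above it and below it, and nr3c2 was lower with overlapping arrays. None of these differences passed the test over all probe sets. With limma and Benjamini-Hochberg adjustment over 15491 probe sets, 0 of the 7 members had an adjusted p under 0.05, and 0 of all probe sets did (0%). At an unadjusted p under 0.05 there was 1 of 7, which was lower in the salamander group, against 5.15% of all probe sets in either direction and 3.03% lower. In 0 of 7 were the groups fully apart, against 2.33% of all. In an unmoderated linear model 0 probe sets were called, and 4.64% had an unadjusted p under 0.05, among them 0 of the 7 members. The unadjusted p of sgk1 was 0.0665 in that model and 0.0523 in limma after quantile normalization. Quantile normalization gives all arrays the same spread, so it draws in the wider salamander arrays. The plot of all values by array shows how far single arrays spread.

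**Figure D1:**
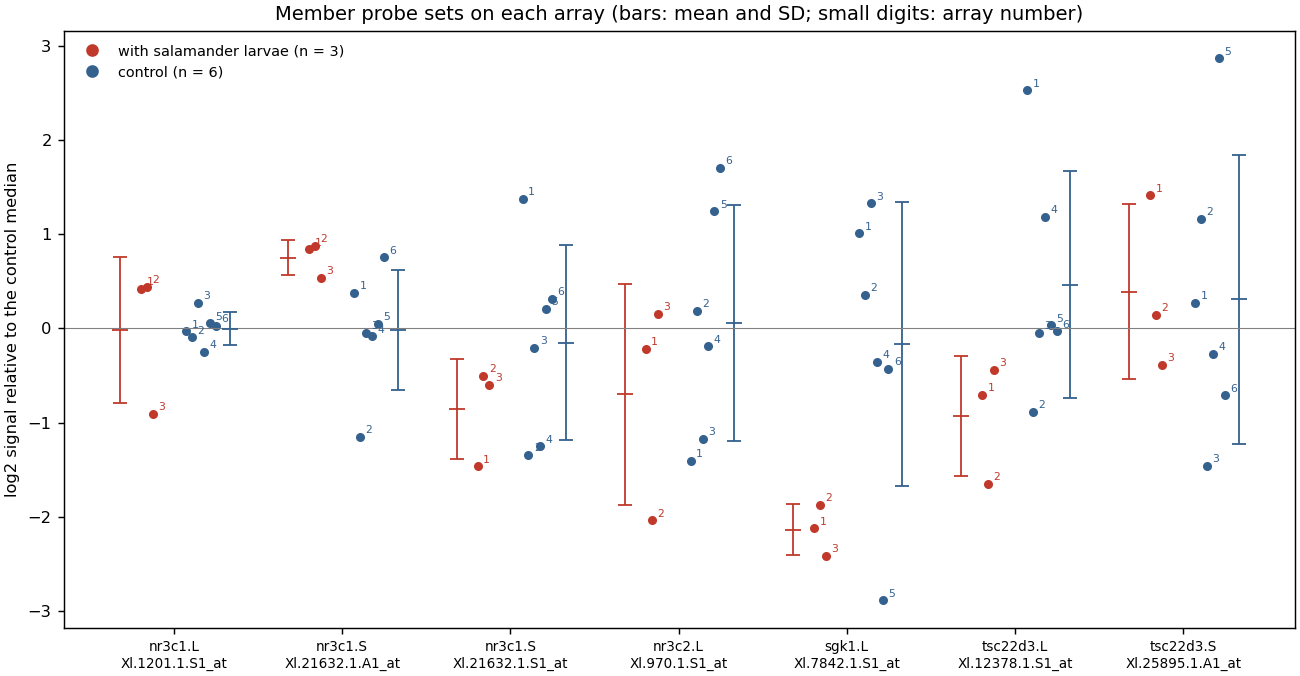
Log2 signal relative to the control median (y axis) of the 7 member probe sets (x axis) on each salamander array (red, left) and control array (blue, right), with mean and SD beside the points and array numbers as digits. The salamander arrays for sgk1 lie between -2.42 and -1.87, below 5 of the 6 controls, while control 5 lies lower still at -2.89.

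The only probe set for sgk1 read -2.12, -1.87 and -2.42 on salamander arrays 1 to 3. The control arrays 1 to 6 read 1.01, 0.35, 1.33, -0.35, -2.89 and -0.43. All 3 salamander arrays were close together and below 5 of the 6 controls, but control 5 was lower than every salamander array, so the groups overlapped. The means were -2.14 ± 0.27 in the salamander group (SD, n = 3) and -0.16 ± 1.51 in controls (SD, n = 6). The difference was -1.97 (SE 0.80, 95% interval -3.72 to -0.23), so the interval reaches 13.1-fold lower at its far end. Before adjustment p was 0.0297 in limma, and the adjusted p was 0.884. In an exact two-sided permutation test over the 84 possible assignments p was 0.0952, where the smallest possible was 0.0238. By unadjusted p this probe set was 518th of all, and 1.12% of probe sets had a larger difference in size.

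Without control 5 the difference was -2.52 (SE 0.54) with an unadjusted p of 7.6e-04 in limma, and the groups no longer overlapped. Over the same arrays 3.65% of all probe sets had groups that did not overlap, 1.88% with the salamander group lower, and 5.44% an unadjusted p under 0.05. The adjusted p of sgk1 was then 0.623 in limma. With any other array left out the difference lay between -2.11 and -1.67, with unadjusted limma p-values from 0.0390 to 0.0839. The difference was -2.44 (SE 0.69) within the arrays of high spike-ins and -1.65 (SE 1.55) within those of low spike-ins, where salamander array 3 stood alone against controls 1, 5 and 6 and was assumed to vary like them. Weak marks fell on 1 of 3 salamander and 2 of 6 control values. The replicate SD of 1.29 was higher than in 81.4% of all probe sets.

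The second target, tsc22d3, had 2 probe sets that did not go together. The one for its L copy read -0.70, -1.65 and -0.44 on salamander arrays 1 to 3. The control arrays 1 to 6 read 2.53, -0.88, -0.04, 1.19, 0.03 and -0.03. Every salamander array lay below 5 of the 6 controls, and control 2 lay below salamander arrays 1 and 3, so the groups overlapped. The difference was -1.39 (SE 0.70, 95% interval -2.92 to 0.13), with an adjusted p in limma of 0.950 (0.0694 before adjustment), and p = 0.0714 in the exact permutation test. It was -1.26 (SE 0.78) within the high and -1.28 (SE 1.25) within the low spike-in arrays. With 1 array left out it ran from -1.66 without control 2, when the groups did not overlap, to -0.98 without control 1. Weak marks were on 2 of 3 salamander and 1 of 6 control values.

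The probe set for the S copy of tsc22d3 gave no such difference. It read 1.41, 0.14 and -0.39 on salamander arrays 1 to 3, and 0.27, 1.17, -1.46, -0.27, 2.87 and -0.71 on control arrays 1 to 6. The salamander arrays lay inside the control range throughout. The difference was 0.08 (SE 0.85, 95% interval -1.77 to 1.93) and ran from -0.43 without salamander array 1 to 0.59 without control 5, turning sign with any 1 of 4 arrays left out. It was 0.97 within the high spike-in arrays and -1.20 within the low ones. Weak marks were on 2 of 3 salamander and 4 of 6 control values, and its replicate SD, 1.39, was higher than in 88.3% of all probe sets. Of the 2 probe sets for this gene, the one with the lower values in the salamander group thus had the fewer weak marks, 3 against 6. Both had 2 of 3 salamander values weak, so the marks differed only in the controls, 1 against 4 of 6.

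The glucocorticoid receptor nr3c1 was read by 3 probe sets, each with a different outcome. The L-copy probe set read 0.42, 0.44 and -0.91 on salamander arrays 1 to 3. The control arrays 1 to 6 read -0.03, -0.10, 0.27, -0.25, 0.06 and 0.03, the tightest controls of the 7 members. All 3 salamander arrays lay outside the control range, 2 above it and 1 below it. The SD was 0.77 in the salamander group (n = 3) and 0.17 in controls (n = 6). The difference in means was -0.01 (SE 0.44, 95% interval -0.98 to 0.96). This was the only member whose interval excluded a 2-fold difference either way, which held for 2.78% of all probe sets. The interval assumes the same spread in both groups, which these SDs do not show. With any 1 array left out the 2-fold difference was no longer excluded. The interval then ran from -1.37 to 0.91 without salamander array 1, and from -0.57 to 1.44 without salamander array 3. Without salamander array 3 the difference was 0.44 and the groups did not overlap, and without control 3 it was 0.04. It was 0.46 (SE 0.56) within the high spike-in arrays, and -0.93 (SE 0.72) within the low ones, where that array is the only salamander array. None of its 9 values was marked as weak.

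For the S copy of nr3c1, both remaining probe sets are annotated with the same source sequence, yet they differed in sign. The one whose ID ends in A1_at read 0.84, 0.88 and 0.53 on salamander arrays 1 to 3, and 0.38, -1.15, -0.05, -0.08, 0.05 and 0.75 on control arrays 1 to 6. All salamander arrays lay above 5 of the 6 controls, and control 6 fell among them. The difference was 0.77 (SE 0.48, 95% interval -0.28 to 1.82), with an adjusted p in limma of 0.986 (0.135 before adjustment). The exact permutation test gave p = 0.0476, unadjusted for the 7 members. The difference kept its sign with any 1 array left out (0.54 to 0.92), and was 1.29 (SE 0.63) within the high and 0.14 (SE 0.76) within the low spike-in arrays. It had 0 weak marks.

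The second probe set of that copy, whose ID ends in S1_at, read -1.46, -0.50 and -0.60 on salamander arrays 1 to 3. The control arrays 1 to 6 read 1.38, -1.34, -0.21, -1.25, 0.21 and 0.31. The groups overlapped, with controls 2 and 4 as low as the salamander arrays. The difference was -0.70 (SE 0.63, 95% interval -2.07 to 0.66; adjusted p = 0.987 in limma). It was -0.40 without control 1 or without salamander array 1, and -0.94 without control 2. It was -0.05 within the high spike-in arrays and -1.23 within the low ones, and 5 of its 9 values were marked as weak. Averaged over its 3 probe sets, nr3c1 differed by 0.02 (SE 0.42, 95% interval -0.90 to 0.94).

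The mineralocorticoid receptor nr3c2, which in mammals binds corticosterone more tightly than nr3c1, had 1 probe set. It read -0.21, -2.04 and 0.16 on salamander arrays 1 to 3, and -1.40, 0.19, -1.17, -0.19, 1.24 and 1.71 on control arrays 1 to 6. The groups overlapped widely, and salamander array 2 alone lay below all controls. The difference was -0.76 (SE 0.77, 95% interval -2.45 to 0.93; adjusted p = 0.987 in limma), -1.19 when salamander array 3 was left out and -0.09 when salamander array 2 was. Without control 6 it was -0.43. It was -0.73 within the high and -0.36 within the low spike-in arrays. Weak marks fell on 0 of 3 salamander and 2 of 6 control values. At most 1 weak value was found in 2 of the 7 members, against 47.3% of all probe sets. Of all 7 probe sets, 3 had an interval that excluded a 4-fold difference either way, against 54.6% of all probe sets, and the interval of nr3c2 was not among them.

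**Figure D2:**
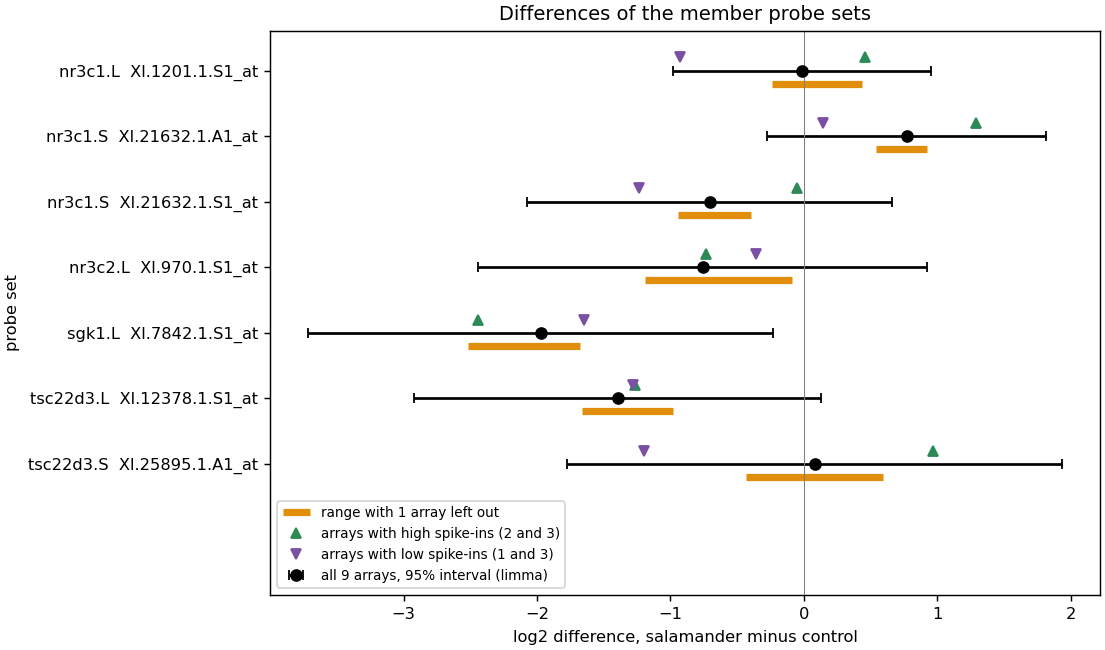
Log2 difference, salamander minus control (x axis), of the 7 member probe sets (y axis): black points with 95% intervals from limma over all 9 arrays, orange bars for the range with 1 array left out, and triangles for differences within arrays of high and of low spike-ins. The interval of sgk1 ends at -0.23, those of the other 6 probe sets include 0, and nr3c1.L and tsc22d3.S turn sign between the spike-in sets.

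Receptors and targets were then set side by side on each array, with each gene given as the mean of its probe sets and equal weight. The target mean (sgk1 and tsc22d3) was -0.88, -1.31 and -1.41 on salamander arrays 1 to 3, and ran from -0.72 to 1.21 on the control arrays with a median of 0.15. All 3 salamander arrays lay below all 6 controls, although neither gene alone kept the groups apart. The lowest control, control 5, joined sgk1 at -2.89 with tsc22d3 at 1.45, the mean of its probe sets at 0.03 (L copy) and 2.87 (S copy). Over all single genes, groups did not overlap in 2.19%, and the share for means of 2 genes was not worked out. The group means were -1.20 ± 0.28 (SD, n = 3) in the salamander group and 0.11 ± 0.66 (SD, n = 6) in controls. With quantile normalization, and each probe set or their median in place of each gene, the groups overlapped, and the difference was then -0.98 or -0.87. As deposited, these weightings gave -1.10 and -1.04, against -1.32 with each gene equal. With the median as deposited the groups almost touched, the highest salamander array at -0.437 and the lowest control at -0.430. Quantile normalization with each gene equal gave -0.780 and -0.762.

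The receptor mean (nr3c1 and nr3c2) was -0.14, -0.88 and -0.08 on the salamander arrays and ran from -0.58 to 1.04 on the controls, with a median of -0.35. The groups overlapped, and the means were -0.37 ± 0.45 (SD, n = 3) in the salamander group and 0.00 ± 0.68 (SD, n = 6) in controls. The targets stood 0.83 below the receptors in the salamander group, at -0.83 ± 0.46 (SD, n = 3), and 0.11 above them in controls, at 0.11 ± 1.25 (SD, n = 6). The difference between these was -0.94, less than the SD of the controls, and controls 5 and 6, at -1.39 and -1.44, lay below all 3 salamander arrays. With 1 array left out it ran from -1.25 to -0.64, and it was -1.21 within the high and -0.93 within the low spike-in arrays. The members had been chosen with results of these arrays known, so no p-value is given for these means.

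Each target was also set against each receptor. The value of sgk1 minus that of nr3c1 was -2.06, -2.14 and -2.09 on the salamander arrays, a spread of 0.04 (SD, n = 3), and ran from -2.99 to 1.32 on the controls with an SD of 1.61 (n = 6). Only control 5 fell below the salamander arrays. The nr3c1 value averages 3 probe sets that did not go together, so the spread of 0.04 belongs to that mean. Spreads against the single probe sets were not worked out. For tsc22d3 minus nr3c1, the salamander arrays had 0.42, -1.03 and -0.09 and the controls -0.76 to 1.35, with overlap. Against nr3c2, sgk1 stood at -1.91, 0.17 and -2.57 on salamander arrays 1 to 3 and between -4.13 and 2.50 on the controls. For tsc22d3 minus nr3c2 the salamander arrays had 0.57, 1.28 and -0.57 and the controls -2.08 to 2.80, with overlap. That pair had a difference of 0.10, positive where the other pairs had -1.99, -0.68 and -1.21.

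**Figure D3:**
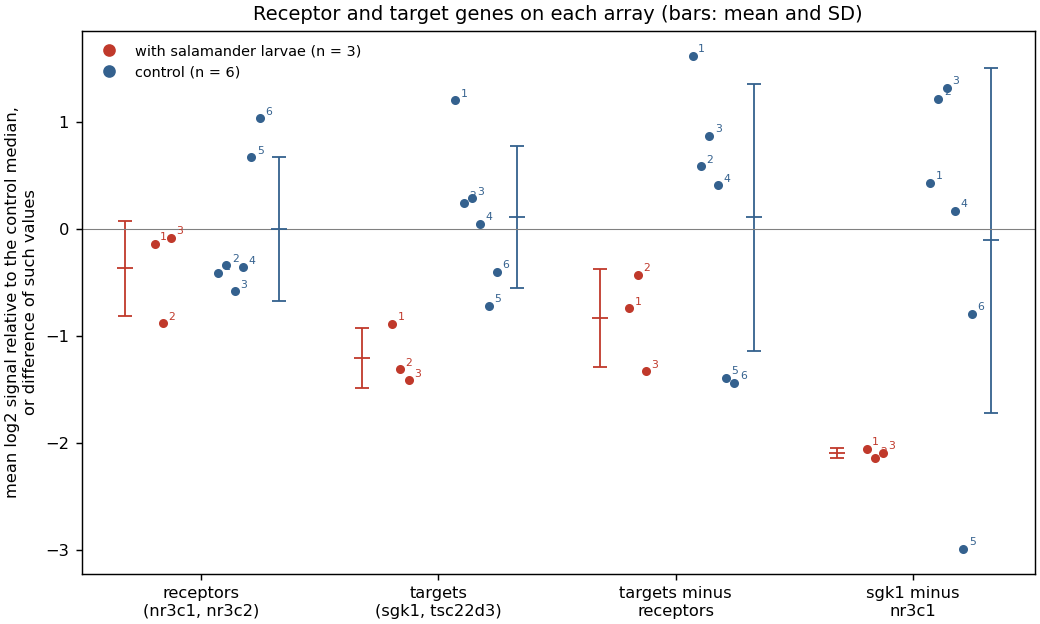
Mean log2 signal relative to the control median, or differences of such values (y axis), for receptor genes, target genes, targets minus receptors and sgk1 minus nr3c1 on each salamander array (red, left) and control array (blue, right), with mean and SD. The salamander arrays lie below all controls for the targets (highest -0.88), and the groups overlap in the other 3 columns. In the targets column, control 5 joins sgk1 at -2.89 with tsc22d3 at 1.45. It lies above the salamander arrays only with the S-copy probe set of tsc22d3. Of the pairs of a target with a receptor, only the one with the largest difference is drawn. Its nr3c1 value is the mean of 3 probe sets.

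Across the 9 arrays no pair of members passed a test of correlation. Over all 21 pairs of member probe sets, Pearson's r ranged from -0.56 to 0.59 with a median of -0.04. By exact permutation, 0 pairs had an unadjusted p under 0.05 by r and 0 by Spearman's rho, and the smallest adjusted p over the 21 pairs was 0.970. The 4 pairs that share a gene had r between -0.12 and 0.26. Over the probe sets, the difference between 2 arrays had an SD of 1.39 to 1.48 for pairs of controls. It was 1.44 to 1.45 for pairs of salamander arrays and 1.41 to 1.47 across the groups. The median replicate SD of all probe sets was 0.96. Whether the deposited values are those the arrays gave could not be checked here, and this limit applies to every value above. Among the 12 pairs of a receptor with a target, the highest was nr3c1.S (S1_at) with tsc22d3.L, at r = 0.59 (exact permutation p = 0.0966, adjusted p = 0.970) and rho = 0.58 (exact permutation p = 0.108, adjusted p = 0.973). It was r = -0.03 without the 2 arrays farthest from the median of the receptor. Leaving out such arrays narrows the range of the receptor, which by itself tends to lower r, so no conclusion is drawn from it. Within the 6 controls that pair had r = 0.58 (exact permutation p = 0.232), and 0 of the 21 pairs had an unadjusted p under 0.05 by r. By rho there was 1, the pair of nr3c1.S probe sets, at rho = 0.94 in controls (exact permutation p = 0.0167, adjusted p = 0.350) and r = 0.73. The spike-in sets hold 5 and 4 arrays, too few for a value of their own.

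Named probe sets with the pattern most like each member over the 9 arrays were sought among all 9304 with 1 symbol. For sgk1 these were dazap2 (r = 0.95) and dcp1b (r = 0.91), and for tsc22d3.L sco2 (r = 0.95) and zbtb34 (r = 0.90). For tsc22d3.S they were hs2st1 (r = 0.96) and nkrf (r = 0.93), and for nr3c2 slx1a (r = 0.91) and chchd3 (r = 0.90). The nr3c1 probe sets were most like psenen and rer1 (L copy, r = 0.92 and 0.91), ankrd11 and gsc (S copy, A1_at, r = 0.96 and 0.94), and dnajc1 and akirin1 (S copy, S1_at, r = 0.93 and 0.92). Matches of this size were usual over 9 arrays: the best match of a named probe set had a median r of 0.95, and the range from the 5th to the 95th percentile was 0.91 to 0.98.

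Other genes of corticosteroid signalling, in 6 lists with 72 measured genes, gave 0 calls in limma at an adjusted p under 0.05 (0% of all 6485 genes). Unadjusted p-values under 0.05 numbered 7 of 72, against 4.81% of all genes, and groups did not overlap in 3, against 2.19%. Exactly 36 of the 72 were lower in the salamander group. Within each list the genes with the smallest p are named, and none passed.

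Among 14 receptor chaperones, which hold the unbound receptor ready for hormone, 8 were lower and 6 higher, with a median of -0.21. The constitutive chaperone gene hspa8 read -2.11, -1.13 and -1.38 on the salamander arrays and -0.91 to 0.85 on the controls, without overlap. Its difference was -1.55 (SE 0.45; adjusted p = 0.756 in limma). Its co-chaperone hsph1 stood at -1.43 (SE 0.47) and the hsp90 co-chaperone ptges3 at -0.72 (SE 0.52). The difference of ptges3 was -1.20 without salamander array 2 and -0.47 without salamander array 3. The chaperone hsp90ab1 itself differed by -0.21 (SE 0.48), and fkbp4, the relative of fkbp5 that promotes receptor transport, by 0.12 (SE 0.36). Both hsp90ab1 and fkbp4 were added to the named genes after their values were seen.

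Of 14 receptor coregulators, 6 were lower and 8 higher, with a median of 0.15. The histone demethylase gene kdm1a was at -1.42 (SE 0.49), the steroid receptor coactivator ncoa2 at -1.02 (SE 0.59) and the corepressor ncor1 at 0.77 (SE 0.50). The estimates of all 3 were unlike in the spike-in sets, of which the low one holds only salamander array 3. Within the high and the low arrays kdm1a was at -2.09 and -0.21, ncoa2 at -1.44 and 0.05, and ncor1 at 0.02 and 2.01. A difference between the sets was not tested. Without salamander array 2 kdm1a was at -0.94 and ncoa2 at -0.53, and without salamander array 3 ncoa2 was at -1.66 and ncor1 at 0.27.

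Of 17 other genes known to be induced by corticosteroids, 12 were lower and 5 higher, with a median of -0.21. The transcription factor gene cebpd was at 1.27 (SE 0.53), the phosphatase dusp1 at 0.84 (SE 0.63) and the glucose-6-phosphatase g6pc1.1 at -1.03 (SE 0.45). The probe sets of dusp1 stood at 1.45 (6 of 9 values weak) and 0.24 (3 weak). Those of g6pc1.1 stood at -1.51 (4 weak) and -0.56 (0 weak). The difference of dusp1 was 0.14 without salamander array 1 and 1.55 without salamander array 2. Within the low spike-in arrays dusp1 was at 0.55 and g6pc1.1 at -0.56. Also added after their values were seen, the frog corticosterone and thyroid hormone target klf9 differed by -0.21 (SE 0.47) and the clock gene per1 by -0.26 (SE 0.44). The targets beyond sgk1 and tsc22d3 thus stood on both sides of 0.

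In the mineralocorticoid and sgk1 pathway 9 of 11 genes had a positive difference, with a median of 0.24. The ubiquitin ligase nedd4l, which removes sodium channels and is inhibited by the sgk1 kinase in mammals, read 1.30, 1.33 and 1.06 on the salamander arrays and -2.16 to 1.03 on the controls. The groups did not overlap, although control 5 came close to the lowest salamander array. Its difference was 1.44 (SE 0.63; adjusted p = 0.993 in limma), and 7 of its 9 values were marked as weak. The kinase wnk1 was at 1.29 (SE 0.61), with 6 of its 9 values weak. The sodium channel subunit scnn1b was at 1.04 (SE 0.50), with probe sets at 1.79 (2 weak) and 0.30 (5 weak). The difference of wnk1 was 0.76 without salamander array 1 and 0.77 within the low spike-in arrays. The sodium pump subunit atp1b1, noticed after its values were seen, was the other gene of this list without overlap, at -0.35 (SE 0.34). There the groups almost touched, with the highest salamander array at -0.241 and the lowest control at -0.236.

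Corticosteroid synthesis and metabolism had 4 of 8 genes higher, with a median of -0.02. The steroid hydroxylase cyp17a1 was at 1.09 (SE 0.54), its electron donor por at 0.96 (SE 0.44) and fdxr, which serves mitochondrial steroid enzymes, at 0.32 (SE 0.43). The probe sets of cyp17a1 stood at 1.01 (4 of 9 values weak) and 1.17 (6 weak). Those of por stood at 0.84 (3 weak) and 1.09 (0 weak). Within the high and the low spike-in arrays cyp17a1 was at 1.72 and 0.19, and fdxr at 0.64 and -0.25. Leaving out salamander array 2 gave 0.09 for fdxr, leaving out salamander array 3 gave 0.57 and leaving out control 2 gave 0.18. Of 8 upstream stress peptide genes, 4 were higher, with a median of -0.13. The corticotropin precursor pomc was at -0.65 (SE 0.61) as the mean of its probe sets. These stood at 0.60 (SE 0.75, 7 of 9 values weak) and -1.90 (SE 0.66, 0 of 9 weak). With the least weak probe set of each gene, pomc had an adjusted p of 0.822 in limma. Without salamander array 1 the mean for pomc was at -0.06, without salamander array 2 at -1.33 and without control 2 at -0.40. The binding protein of the releasing hormone, crhbp, was at 0.58 (SE 0.66) and the PACAP receptor adcyap1r1 at 0.28 (SE 0.37). The difference of crhbp was 1.93 within the high and -1.44 within the low spike-in arrays. It was 0.20 without salamander array 1, 0.29 without salamander array 2, 1.25 without salamander array 3 and 0.88 without control 6, and adcyap1r1 was at 0.17 without salamander array 1.

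**Figure D4:**
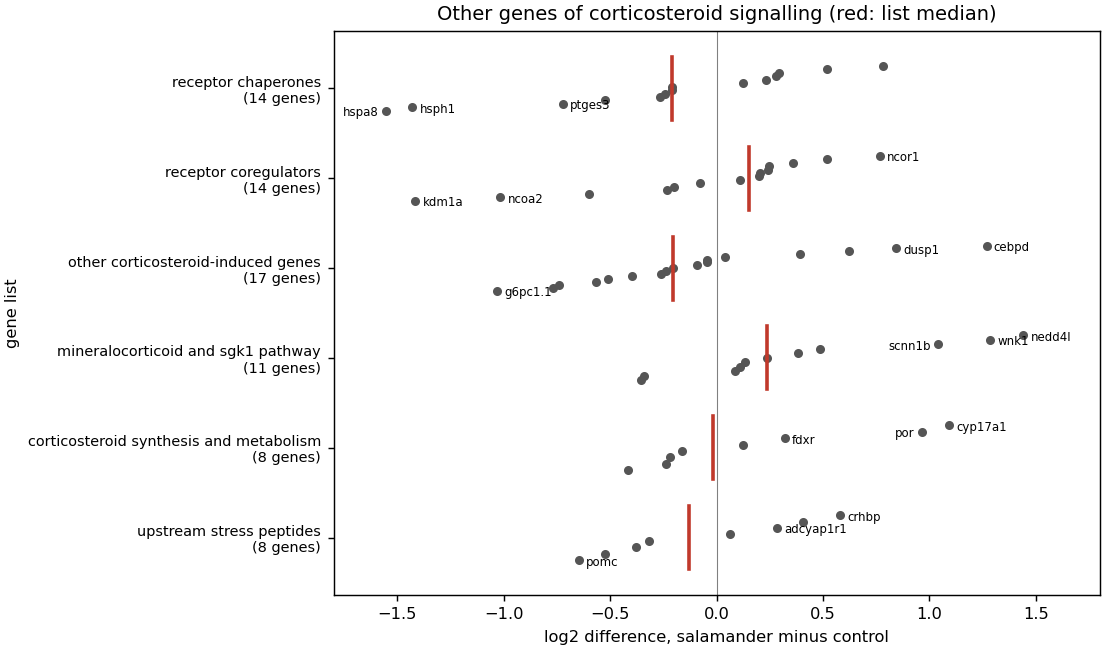
Log2 difference, salamander minus control (x axis), of the 72 measured genes in 6 lists of corticosteroid signalling (y axis), with 1 point per gene, stacked in order of difference, and list medians in red. List medians lie between -0.21 and 0.24, and the genes spread from -1.55 to 1.44.

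Markers of cell types in or around a dissected brain were read in the same way. Mean values of 4 blood genes lay between -1.11 and -0.20 on the salamander arrays and between -0.79 and 0.86 on the controls, in a list whose genes did not go together. Of these, slc4a1, which encodes the anion exchanger of red cells, differed by -1.90 (SE 0.54) without overlap, and the globin genes hba3, hba1 and hbg1 by -1.58 (SE 0.77), -0.31 (SE 0.37) and 1.04 (SE 0.75), with overlap. Those of 7 neuronal genes lay between 0.04 and 0.69 on the salamander arrays and between -0.21 and 0.19 on the controls. Among them the neurofilament gene nefm differed by 0.86 (SE 0.36) without overlap, and the 6 others, with overlap, by -0.84 to 0.85. The 4 pituitary genes ran from -0.57 to 0.34 in the salamander group and from -0.62 to 0.68 in controls, and the 3 muscle genes from -0.15 to 0.41 in the salamander group and from -0.54 to 0.32 in controls. The 2 astroglial genes ran from -1.02 to -0.07 in the salamander group and from -0.89 to 0.28 in controls, and the 1 myelin gene, mbp, from -1.02 to 0.35 in the salamander group and from -1.01 to 0.97 in controls. The ranges of all 6 list means overlapped between the groups, and whether a marker is at 0 cannot be read from centred values. The part of these tissues in the difference of sgk1 was not tested.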

How the data were processed

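MAS5 produced the signals, per the submitters' processing notes, with no version stated there. Deposited were log2 values of 15611 probe sets for the 9 samples. The table had 0 columns that belong to no sample. The authors had subtracted the control median of each probe set: the median of the 6 controls was 0 in every row, to within 9.5e-07. This centring, the logarithm and base 2 were read from the values, and the scaling between arrays is unknown.

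Groups came from the sample titles. Salamander minus control was fitted with limma 3.58.1 (lmFit and eBayes, no trend, no filter) in R 4.3.3 on 15491 probe sets, leaving out 120 Affymetrix controls. P-values were adjusted by Benjamini-Hochberg over all probe sets, or over all 6485 genes for gene means, and called at 0.05. SciPy 1.17.1 gave exact permutation tests and matplotlib 3.10.9 the plots. The fit was tested on simulated data. A value was weak where it was not a multiple of the step 9.5e-07, the rounding of a log2 signal of 8 or more, within 0.2 steps.

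The platform annotation gave 9304 probe sets 1 symbol and 195 several; these 195 were not named, and 6187 tested probe sets had no single symbol. All member probe sets were named. So were, per list, the 3 genes with the smallest p, and for each member the 2 most alike probe sets. Members and lists were chosen with earlier results of these data known. Alternatives were 2 array scalings, blocks for replicate number and spike-in level, fits within spike-in levels, other variance models, array weights, other feature sets and summaries, and each array left out.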

Additional observations from a re-analysis of the deposited data

Results flagged for a closer look

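Of 28 sets of 6 control values examined (member probe sets, named genes and member means), 2 held 1 array far from the other 5, where chance gives about 1 in 20. For hsph1 control array 2 stood at -1.11, with the other controls between -0.16 and 0.40. For kdm1a control array 3 stood at 0.87, with the other controls between -0.43 and 0.04. No member probe set was among them: control 5 in sgk1, at -2.89, lay within the limit used.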

How the results depend on the processing

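The count of called probe sets was 0 under every alternative run, with 475 (quantile normalization) to 861 (spike-in level as a block) at an unadjusted p under 0.05, apart from smaller feature sets with 355 and 479 (798 as reported); among the 7 members it was 0 throughout. The count of called genes was 0 except without control array 3, when 1 gene that is no member, trappc6a, passed (range 0 to 1). With quantile normalization 179 genes had an unadjusted p under 0.05, against 312 as reported. The differences of sgk1, tsc22d3.L and both S-copy probe sets of nr3c1 kept their sign under every alternative. Those of sgk1 ran from -3.03 (replicate block) to -1.65 (within the low spike-in arrays). Same-numbered salamander and control arrays had deviations from their group means that correlated at 0.01, 0.02 and 0.00 for numbers 1 to 3, so the numbers were not taken to pair the samples. The replicate block gives controls 4 to 6 no weight in the difference, as no salamander array has these numbers. It thus sets the salamander arrays against controls 1 to 3 only and leaves out control 5. With this block the member differences were -3.03 for sgk1 and -1.46 for tsc22d3.L, and nr3c2 turned to 0.10. The block left 0 calls over all probe sets and 828 at an unadjusted p under 0.05 in limma. Signs also turned for nr3c1.L, to 0.46 within the high spike-in arrays and 0.42 with medians in place of means, and for tsc22d3.S, to -1.20 within the low spike-in arrays. The gene mean of nr3c1 turned to -0.67 within the low spike-in arrays and to -0.012 with its least weak probe set, and ran from -0.14 to 0.16 with 1 array left out. Within the low spike-in arrays, ncoa2 turned to 0.053, fdxr to -0.25 and crhbp to -1.44. The causes were not tested. The difference of targets minus receptors, -0.94, stayed negative under every alternative run. It was -1.86 with the replicate block, -0.84 with quantile normalization, and -1.25 to -0.64 with 1 array left out. No alternative left out sgk1, whose difference of -1.97 was larger in size than those of tsc22d3 (-0.66) and nr3c2 (-0.76). How far the constant sign rested on sgk1 was thus not tested. For tsc22d3 alone, the difference was -0.68 against nr3c1 and 0.10 against nr3c2. With 1 array left out nr3c1.L ran from -0.24 to 0.44 and tsc22d3.S from -0.43 to 0.59, the only members to turn. Signal over background could not be read beyond the weak marks.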
